A study of Sus scrofa with 23 samples.

Results

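Kidney cortex of newborn pigs that lacked both functional alleles of the cystic fibrosis transmembrane conductance regulator gene (genotype CFTR-/-, called CF) was compared with that of wild-type (WT) newborns. These 2 genotypes account for 17 of the 23 libraries of the series, 11 CF and 6 WT, each from another pig, and the 6 heterozygous libraries were left out. The pigs carried no treatment label, and the CF animals came from matings of heterozygous parents and were studied within hours of birth. Total RNA depleted of ribosomal RNA was sequenced, and every value below is a count estimated by kallisto, summed per gene symbol, or the same count scaled to a common library total by TMM (CPM). The libraries held between 32901281 and 50313925 estimated counts (median 43636298 for CF and 42709608.5 for WT), so that 3 counts, the level read as the limit for a count of 0, equaled 0.0596 to 0.0912 CPM.

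The cortex holds glomeruli and the proximal and distal parts of the nephron, and it is still growing at birth in the pig. CFTR is a channel for chloride and bicarbonate in the apical membrane of epithelia, and in the kidney it is found in several tubule segments. Because each value is a level in bulk tissue, fewer cells of a type and less RNA per cell cannot be told apart. The defining markers of the labelled tissue were present. The 20 proximal tubule genes summed to between 9845 and 17791 CPM in every library, and the endocytic receptor gene LRP2 alone had 3580.0 to 8040.2 CPM (median 4718) in CF and 3705 to 5656 CPM (median 4706) in WT.

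Libraries also parted along lines other than the genotype. The first axis of multidimensional scaling (17.9% of the variance) separated 8 libraries with the Y-linked gene EIF1AY at 15.4 to 26.1 CPM (6 CF and 2 WT) from 9 libraries with at most 0.0968 CPM (5 CF and 4 WT). The second axis (12.5%) separated pigs CF1 to CF6, WT12 and WT16 to WT18 (here lower-numbered) from CF7 to CF11, WT22 and WT23 (higher-numbered). Lower and higher refer to the numbers within each genotype. These number sets had been seen to part on such an axis in earlier work on these data, so this split is no independent result. EIF1AY was above 1 CPM in 3 of 6 CF and 2 of 4 WT lower-numbered libraries, but in 3 of 5 CF and 0 of 2 WT higher-numbered ones, so genotype and EIF1AY overlapped in part within higher-numbered pigs. The labels give no sex, litter or batch, and what littermates may share was not modelled. The library WT12 carried 7.11% of its counts on the ribosomal RNA gene RN18S, where all other libraries of both groups carried 0.0615% to 0.396%.

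CFTR itself was first read in every library as a check of the labels. The 11 libraries labelled CF held 614 to 1040 estimated counts of CFTR (median 901), and the 6 labelled WT held 60 to 178 (median 90.0). Every library labelled CF therefore had more CFTR RNA than every library labelled WT, the opposite of a loss of transcript. The 6 heterozygous libraries held 442 to 699 (median 556), more than every WT library and in part within the CF range. CF and WT in what follows mean the libraries so labelled. If the labels of these groups were exchanged, every direction given here would turn, and this was not tested. On the CPM scale the levels were 12.5 to 23.7 CPM (median 20.9) and 1.27 to 3.65 CPM (median 2.28), a log2 difference of 3.14 ± 0.188 (SE) with an adjusted p = 8.54e-09 in the quasi-likelihood test of edgeR. An exact two-sided permutation test over the 12376 ways to choose the libraries gave p = 8.08e-05, the smallest value it can give. The gene lies on the minus strand of Sscrofa11.1 at chr18:28627717-28818209 and has 4 annotated transcripts. The sources used here do not say which exons the null allele changes, so RNA summed over the whole gene does not show whether a functional message was made.

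Of 21209 genes tested, 70 differed between the genotypes at an adjusted p under 0.05, which is 0.33% of those tested. Lower levels in CF were found for 46 of them (0.217%) and higher levels for 24 (0.113%). The differences were small, with a median absolute log2 fold change of 0.60, and 6 genes exceeded 1. Before adjustment 2836 genes (13.4%) had a p under 0.05, 1511 of them higher in CF (7.12%) and 1325 lower (6.25%). All 11 CF libraries lay outside the WT range for 29 of the 70 genes, 21 of them lower and 8 higher, and for 55 genes (0.259%) of all those tested. The number of calls depended on the tool and on single libraries: DESeq2 called 486 genes (2.29%), 245 higher and 241 lower, including 69 of the 70, and leaving out 1 library gave 22 (without WT17) to 154 (without CF4) calls. On simulated counts DESeq2 made 32 false calls and edgeR made 4. Each fit without 1 library reused the others that had called the genes, so a kept direction is no independent evidence. Whichever library was left out, all 70 genes kept their direction, and 15 stayed under the threshold each time. Those were CFTR, ABCA1 and an uncharacterized locus among the higher genes, and GPR37, ACOT7, GPBAR1, TICRR, PPA1, TFRC, NT5C1A, AK5, ALDH1A1, MCM10, UBASH3B and MEST among the lower. In the fit of all 23 libraries ABCA1 and TFRC missed the threshold (adjusted p = 0.0561 and 0.0579 by edgeR), while the other 13 of these 15 passed it. The exact Mann-Whitney U test called 0 genes after adjustment and 2605 at an unadjusted p under 0.05. The smallest p it can give here, 1.62e-04, was reached by 52 genes, CFTR among them, and became 0.0659 after adjustment. Its count of 0 is therefore limited by the number of libraries.

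**Figure D1:**
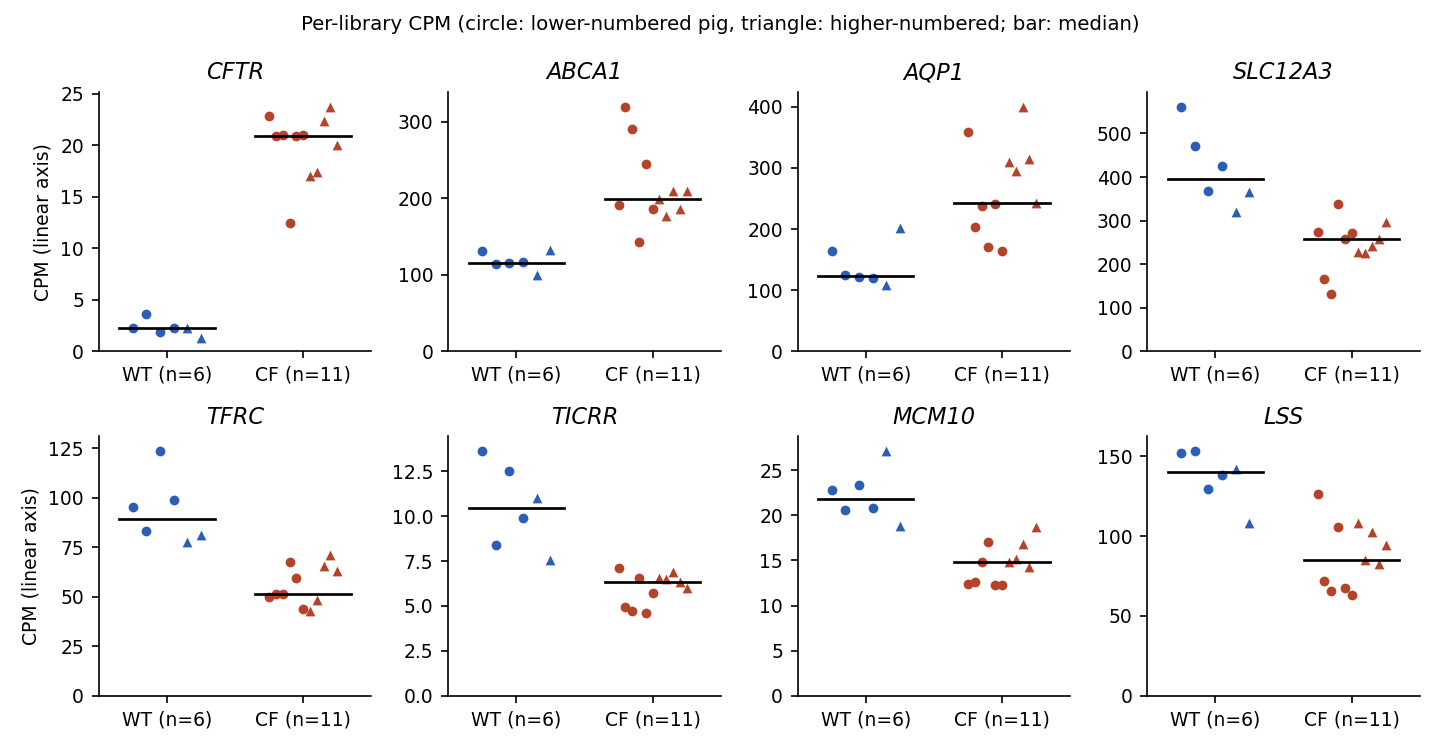
CPM per library (linear axis from 0) of 8 genes described in the text, WT in blue (n = 6) and CF in red (n = 11). Circles are lower-numbered pigs, triangles higher-numbered pigs and bars medians. CFTR, ABCA1, TFRC, TICRR and MCM10 show no overlap between the groups, while AQP1, SLC12A3 and LSS do overlap.

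The genes called lower included 5 that replicate DNA and 6 that repair it. Before a cell divides, origins are licensed by the ORC and MCM proteins and then fired by factors that include TICRR, MCM10, RECQL4 and the GINS complex. TICRR, which brings the helicase to life at origins, had 4.62 to 7.13 CPM (median 6.35) in CF and 7.56 to 13.6 CPM (median 10.4) in WT. The log2 fold change was -0.81 ± 0.128 (SE), with an adjusted p = 0.0117, and no CF library reached the lowest WT library. MCM10, a replication initiation factor, had 12.3 to 18.7 CPM (median 14.9) in CF against 18.8 to 27.2 CPM (median 21.8) in WT (log2 fold change -0.60 ± 0.101 (SE), adjusted p = 0.0142). Its 2 groups met closely but did not overlap. RECQL4, a helicase of the RecQ family, had 3.11 to 7.63 CPM (median 6.55) against 8.22 to 13.5 CPM (median 10.6), again with no overlap (adjusted p = 0.0421). GINS2, a subunit of the replicative helicase, fell by less (log2 fold change -0.42, adjusted p = 0.0421). DTL, the adaptor that directs the licensing factor CDT1 to degradation, had 6.67 to 12.96 CPM (median 8.94) in CF and 11.4 to 20.5 CPM (median 15.1) in WT (adjusted p = 0.0421), and 9 of the 11 CF libraries lay under the whole WT range.

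These 5 were the called members (10.9%, against 0.33% of all genes) among 46 tested genes of a DNA replication list, which was drawn up after the first called genes had been seen, so its direction is no independent evidence. In all, 41 of the 46 had lower estimates in CF, with a median log2 fold change of -0.31, where the median over all genes tested was -0.00226. An unadjusted p under 0.05 was reached by 28 lower members and 1 higher member, ORC4 (63.0% of the list, against 13.4% of all genes). The MCM2 to MCM7 helicase subunits were among those that did not pass after adjustment in the main edgeR fit. MCM2 had a log2 fold change of -0.59 ± 0.138 (SE) with an adjusted p = 0.0702, and MCM6 had -0.66 ± 0.167 (SE) with an adjusted p = 0.0933. POLE, the catalytic subunit of the leading-strand polymerase, was as far apart as TICRR (-0.81) but more variable, with 14.6 to 34.96 CPM (median 25.1) in CF and 28.2 to 54.1 CPM (median 41.8) in WT (adjusted p = 0.0592). The summed level of the list was 1362 to 1809 CPM in CF (median 1535) and 1726 to 2228 CPM in WT (median 1794), so the groups overlapped.

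Repair genes were called in the same direction. Of 27 tested partners in DNA repair, a list also added after values were seen, 6 were called and all 6 were lower in CF (22.2% of the list, against 0.33% of all genes). DDX11, a helicase that also serves sister chromatid cohesion, had 22.4 to 30.8 CPM (median 25.7) in CF and 31.0 to 45.0 CPM (median 35.2) in WT (log2 fold change -0.47 ± 0.0852 (SE), adjusted p = 0.0223). FANCA, of the Fanconi anemia core complex, and NEIL3, a DNA glycosylase, likewise showed no overlap (-0.61 and -0.51). The FANCA estimate was -0.86 in lower-numbered and -0.16 in higher-numbered pigs, with an unadjusted p = 0.234 in the latter, and the test of that difference gave an unadjusted p = 0.00699 and an adjusted p = 0.440 (edgeR). Among the others were RMI2, of the BLM dissolution complex (-0.67), and BARD1, the partner of BRCA1 (-0.45). BRCA1 had a log2 fold change of -0.48 ± 0.105 (SE) and missed the threshold (adjusted p = 0.0525). The list's median was -0.38, and 25 of its 27 members had lower estimates in CF.

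The next 6 called genes belong to no list and were grouped after their values were seen. CDCA7, a chromatin factor of the HELLS remodeling complex, had 9.81 to 17.7 CPM (median 14.8) in CF and 18.6 to 29.7 CPM (median 22.4) in WT (log2 fold change -0.69 ± 0.118 (SE), adjusted p = 0.0154). Its relative CDCA7L, the kinetochore gene KNTC1, the chromatin ATPase ATAD2, the cyclin CCNB3 and the maintenance DNA methyltransferase DNMT1 fell by 0.37 to 0.73 on the log2 scale. Among 10 proliferation markers, 3 of which (MCM2, MCM5 and PCNA) are also on the replication list, 0 passed the adjusted threshold in the main edgeR fit. All 10 had lower estimates in CF, and 7 had an unadjusted p under 0.05 (70.0%, against 13.4% of all genes). The list's median was -0.32, at -0.42 in lower-numbered and -0.17 in higher-numbered pigs, and at -0.51 and -0.15 with EIF1AY above and under 1 CPM. TOP2A, a mitotic topoisomerase, had 90.1 to 136 CPM (median 108) in CF and 96.7 to 193 CPM (median 137) in WT (adjusted p = 0.192). MKI67, the standard marker of cycling cells, had a log2 fold change of -0.43 ± 0.163 (SE) with an adjusted p = 0.255, and its estimate was -0.63 in lower-numbered and 0.12 in higher-numbered pigs.

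Histone genes were a further group, since their messages are made while DNA is copied. Of 53 tested genes whose annotated product is a histone, a list also added after values were seen, 4 were called (7.55%, against 0.33% of all genes). All 4 were lower in CF, and all lay on chromosome 7. An unadjusted p under 0.05 was reached by 25 lower and 4 higher members (54.7%, against 13.4% of all genes). The 4 called genes encode histones H4, H3.1, H2B type 1-K and H1.1, with log2 fold changes of -0.75, -0.62, -0.58 and -0.56. Histone genes are near-identical copies whose reads kallisto divides between them, so the value of a single copy is uncertain. Replication-dependent histone messages also lack a poly(A) tail, and total RNA libraries retain them. The median over the list was -0.26, but it was -0.47 in lower-numbered and -0.03 in higher-numbered pigs, and -0.47 and -0.18 with EIF1AY above and under 1 CPM.

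The called replication gene DTL and other members carry a short element in the sequence before the gene start that resembles the core of sites for E2F, a family of factors that switch on replication genes. Both strands of the 250 bases before the annotated start were searched for TTCCCGC and TTGGCGC. At least 1 match was found for 12 of 46 replication genes (26.1%), 5 of 27 repair genes (18.5%), 5 of 45 called lower genes (11.11%), 1 of 23 called higher genes (4.35%) and 1535 of 17158 protein-coding genes tested (8.95%). Of the 5 called replication genes only DTL held a match. A match is a description of these letters and not a site of binding. The 3 replication genes with the smallest p that held a match are shown, to let the element be seen in its place, as RefSeq gives them on Sscrofa11.1, 5′ to 3′ on the gene's own strand with matches in capitals. DTL lies at chr9:131275427-131275676 on the minus strand, POLE at chr14:22797896-22798145 on the plus strand and MCM3 at chr7:46104426-46104675 on the minus strand.
DTL: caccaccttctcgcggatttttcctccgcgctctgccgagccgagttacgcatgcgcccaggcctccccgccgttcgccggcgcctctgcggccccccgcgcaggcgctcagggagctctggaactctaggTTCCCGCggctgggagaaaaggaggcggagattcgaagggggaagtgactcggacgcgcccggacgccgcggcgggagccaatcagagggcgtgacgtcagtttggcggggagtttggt
POLE: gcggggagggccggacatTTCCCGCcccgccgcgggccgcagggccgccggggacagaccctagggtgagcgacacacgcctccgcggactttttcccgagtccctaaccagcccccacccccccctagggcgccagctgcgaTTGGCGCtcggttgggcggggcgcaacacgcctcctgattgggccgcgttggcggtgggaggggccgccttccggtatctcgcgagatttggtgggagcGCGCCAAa
MCM3: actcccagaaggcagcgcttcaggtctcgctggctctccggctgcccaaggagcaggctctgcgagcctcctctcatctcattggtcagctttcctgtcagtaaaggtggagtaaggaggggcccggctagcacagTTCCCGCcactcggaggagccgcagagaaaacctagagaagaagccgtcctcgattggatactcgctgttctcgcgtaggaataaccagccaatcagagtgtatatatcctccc
POLE held 3 matches, which start 232, 107 and 8 bases before the annotated gene start. The levels of DTL and POLE are given above, and MCM3, a licensing helicase subunit, had 36.7 to 72.2 CPM (median 48.3) in CF and 55.3 to 93.8 CPM (median 75.3) in WT (log2 fold change -0.56 ± 0.136 (SE), adjusted p = 0.0772).

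Called genes of sterol handling lay on both sides. As background, cells that hold much sterol make more of the exporters driven by the LXR receptors and less of the enzymes that build cholesterol. ABCA1, the exporter that loads cholesterol onto apolipoproteins, had 143 to 319 CPM (median 199) in CF and 100.1 to 132 CPM (median 116) in WT. It was higher in all 11 CF libraries than in any WT library (log2 fold change 0.86 ± 0.139 (SE), adjusted p = 0.0119). MYLIP, a ubiquitin ligase induced by LXR, had 28.0 to 51.2 CPM (median 39.8) against 24.9 to 33.0 CPM (median 28.5) (log2 fold change 0.52 ± 0.111 (SE), adjusted p = 0.0487). Of 10 tested LXR targets, a list added after values were seen, these 2 were called (20%, against 0.33% of all genes), 9 had higher estimates in CF and 6 had an unadjusted p under 0.05 (60.0%, against 13.4% of all genes). ABCG1 was 1 of them, at 0.69 ± 0.235 (SE) (adjusted p = 0.193).

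On the synthetic side 1 of 13 tested genes of cholesterol synthesis was called (7.69%, against 0.33% of all genes). LSS, which closes squalene epoxide to lanosterol, had 62.9 to 127 CPM (median 84.7) in CF and 108 to 153 CPM (median 140.1) in WT, and 10 of 11 CF libraries lay under the whole WT range (log2 fold change -0.63 ± 0.135 (SE), adjusted p = 0.0484). Lower estimates in CF were found for 12 of the 13 genes, with a median log2 fold change of -0.38, and 7 had an unadjusted p under 0.05 (53.8%, against 13.4% of all genes). FDPS (-0.71), SQLE (-0.53) and DHCR7 (-0.52) did not pass after adjustment, with adjusted p of 0.104, 0.288 and 0.153. The median of the list was -0.06 within the 8 libraries with EIF1AY above 1 CPM and -0.76 within the other 9. Summed levels ran from 563 to 1152 CPM in CF and from 931 to 1296 CPM in WT, so the groups overlapped. ELOVL6, which lengthens palmitate, was called lower (-0.61 ± 0.127 (SE), adjusted p = 0.0442), as was the lipoprotein gene APOF (-0.86 ± 0.171 (SE), adjusted p = 0.0421).

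**Figure D2:**
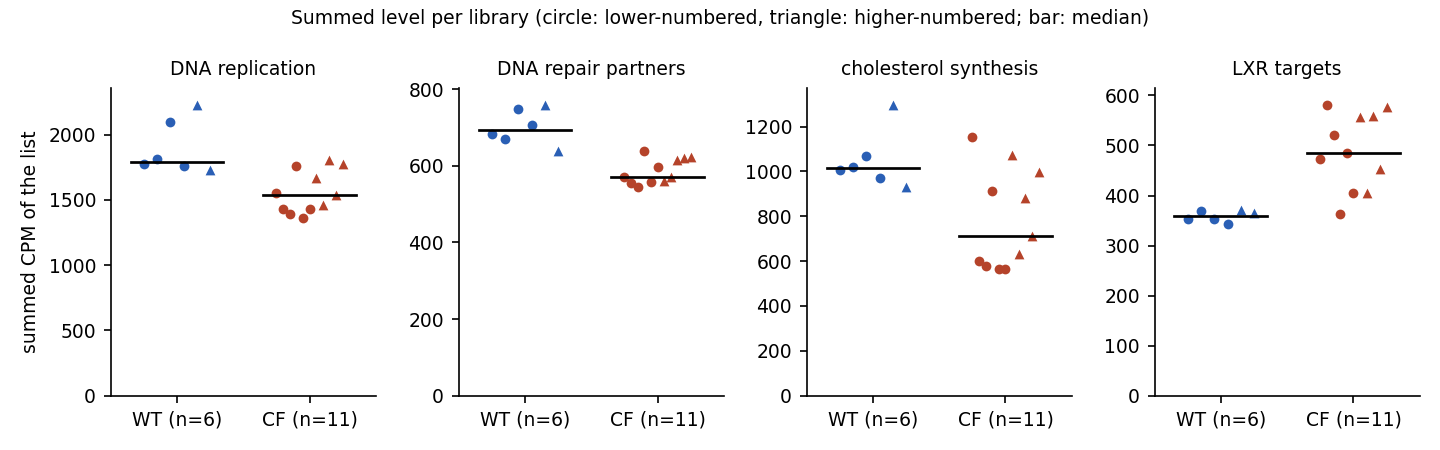
Summed CPM per library of 4 gene lists (linear axes from 0), WT in blue (n = 6) and CF in red (n = 11), with circles for lower-numbered pigs, triangles for higher-numbered pigs and bars for medians. The medians were 1535 CPM in CF and 1794 CPM in WT for DNA replication, 571 and 694 for repair, 711 and 1014 for cholesterol synthesis and 484 and 360 for LXR targets.

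A further 6 called genes encode enzymes that are on none of the lists, and they were set side by side after their values were seen. NT5C1A, which frees adenosine from AMP in the cytosol, had 16.9 to 37.4 CPM (median 24.1) in CF and 40.7 to 53.5 CPM (median 48.3) in WT, without overlap (log2 fold change -0.89 ± 0.142 (SE), adjusted p = 0.0117). AK5, an adenylate kinase, had 11.4 to 21.2 CPM (median 15.8) against 23.1 to 31.6 CPM (median 25.8), also without overlap (adjusted p = 0.0119). PPA1, the cytosolic pyrophosphatase, was lower by a like amount (-0.69 ± 0.110 (SE), adjusted p = 0.0117). Another adenylate kinase gene, AK8, was higher in CF, with 4.62 to 8.496 CPM (median 7.53) against 3.38 to 5.75 CPM (median 4.34) (adjusted p = 0.0487). ENTPD6, a nucleoside diphosphatase, and PGM3, an enzyme of the hexosamine pathway, were lower (-0.58 ± 0.122 (SE) and -0.49 ± 0.0913 (SE), adjusted p = 0.0472 and 0.0293).

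Other lower genes had large or well-separated differences. GPR37, an orphan G protein-coupled receptor, had 5.86 to 12.7 CPM (median 7.76) in CF and 14.3 to 21.1 CPM (median 16.6) in WT (log2 fold change -1.06 ± 0.139 (SE), adjusted p = 0.00274). After CFTR it had the smallest adjusted p of all genes. GPBAR1, the membrane receptor for bile acids, was scarce in both genotypes, with 0.177 to 0.814 CPM (median 0.444) in CF and 0.887 to 1.99 CPM (median 1.20) in WT (log2 fold change -1.50 ± 0.231 (SE), adjusted p = 0.0117). ACOT7, an acyl-CoA thioesterase, had 2.29 to 7.37 CPM (median 4.05) against 6.68 to 12.2 CPM (median 8.999) (log2 fold change -1.27 ± 0.192 (SE), adjusted p = 0.0117), and 1 CF library overlapped the WT range. TFRC, the receptor through which cells take up transferrin-bound iron, had 43.0 to 71.1 CPM (median 51.2) in CF and 77.8 to 124 CPM (median 89.2) in WT (log2 fold change -0.74 ± 0.118 (SE), adjusted p = 0.0117). Of the 12 tested erythroid genes 0 were called by edgeR and 1 had an unadjusted p under 0.05 (8.33%, against 13.4% of all genes), RHAG, with a log2 fold change of -0.44 and an adjusted p = 0.125. ALDH1A1, which makes retinoic acid, was an abundant gene with a narrow spread, 234 to 327 CPM (median 286) in CF and 365 to 415 CPM (median 396) in WT (log2 fold change -0.48 ± 0.0812 (SE), adjusted p = 0.0142). MEST, an imprinted gene of fetal growth, had 66.2 to 116 CPM (median 89.8) against 105 to 227 CPM (median 151) (log2 fold change -0.81 ± 0.140 (SE), adjusted p = 0.0154). Its estimate was -1.01 in lower-numbered and -0.31 in higher-numbered pigs (unadjusted p = 0.121 in the latter by edgeR), and -1.26 and -0.47 in libraries with EIF1AY above and under 1 CPM. UBASH3B, a tyrosine phosphatase, fell less (-0.50 ± 0.085 (SE), adjusted p = 0.0154).

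**Figure D3:**
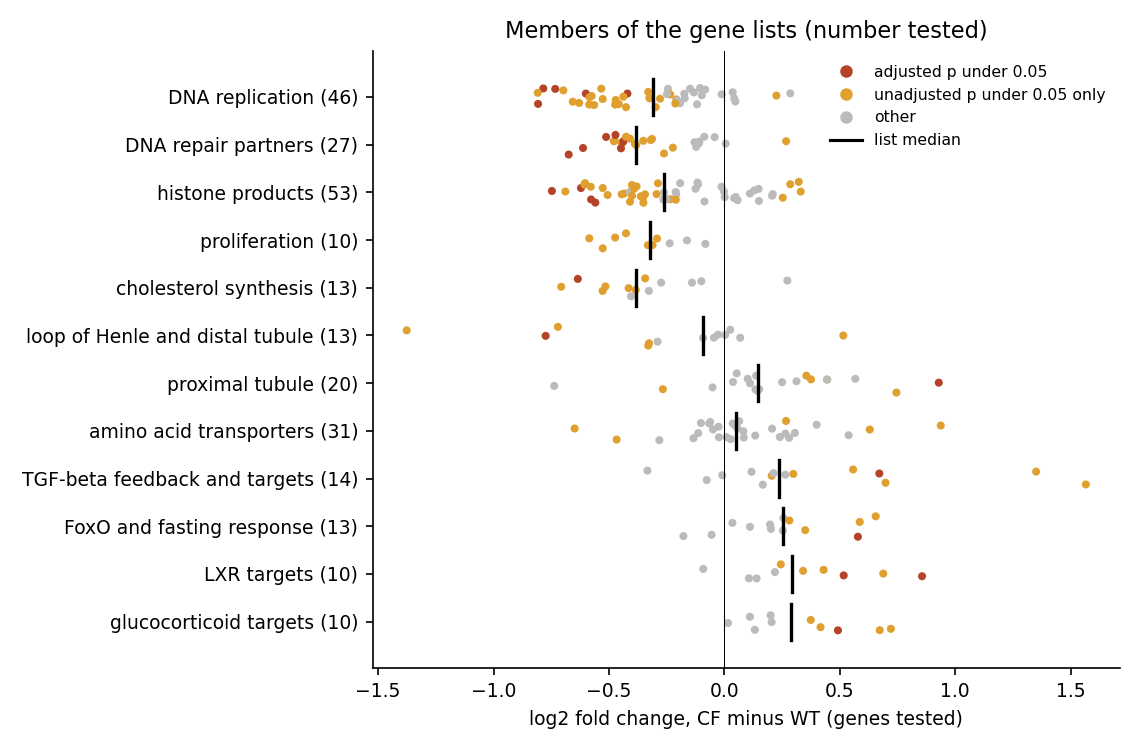
Log2 fold change (CF minus WT) of each tested member of 12 gene lists, with the number tested in parentheses. Red points had an adjusted p under 0.05, yellow points an unadjusted p under 0.05 only, and black bars mark list medians. The medians of the DNA replication, repair, histone, proliferation and cholesterol lists lay between -0.38 and -0.26, and those of the TGF-beta, FoxO, LXR and glucocorticoid lists between 0.24 and 0.29.

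Along the nephron 1 gene was called in the proximal tubule list and 1 in the distal list. AQP1, the water channel of the proximal tubule and thin limb, had 164 to 400.1 CPM (median 243) in CF and 108 to 202 CPM (median 123) in WT (log2 fold change 0.93 ± 0.186 (SE), adjusted p = 0.0421), and 9 of 11 CF libraries lay above the whole WT range. It was the 1 called gene among 20 proximal tubule genes (5%, against 0.33% of all genes), 17 of which had higher estimates in CF (median 0.15). That median was 0.34 in libraries with EIF1AY above 1 CPM and 0.03 in the others. An unadjusted p under 0.05 was reached by 5 higher members and 1 lower member (30%, against 13.4% of all genes). CUBN, an endocytic receptor that works with LRP2, had a log2 fold change of 0.35 ± 0.107 (SE) (adjusted p = 0.140). KCNK5, a potassium channel of the proximal tubule, was called higher outside that list, with 70.4 to 167 CPM (median 126) in CF and 60.8 to 89.0 CPM (median 70.4) in WT (log2 fold change 0.74 ± 0.154 (SE), adjusted p = 0.0442).

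The distal side showed the reverse for SLC12A3, the thiazide-sensitive sodium chloride cotransporter. It had 132 to 337 CPM (median 257) in CF and 319 to 561 CPM (median 396) in WT, with 10 of 11 CF libraries under the whole WT range (log2 fold change -0.77 ± 0.156 (SE), adjusted p = 0.0421). It was the 1 called gene among 13 distal nephron genes, from the loop of Henle to the distal tubule (7.69%, against 0.33% of all genes). Of these, 9 had lower and 4 had higher estimates in CF, with a median of only -0.09. That median was -0.31 in lower-numbered and -0.23 in higher-numbered pigs, and -0.12 and -0.29 with EIF1AY above and under 1 CPM. An unadjusted p under 0.05 was reached by 5 lower members and 1 higher member (46.2%, against 13.4% of all genes). The list summed to 1420 to 2144 CPM in CF (median 1782) and 1730 to 2598 CPM in WT (median 2194), with overlap. CALB1, a calcium-binding protein of the same segment, had the lowest estimate of the list (-1.38 ± 0.356 (SE)) but missed the threshold (adjusted p = 0.0967). SLC12A1, the cotransporter of the thick ascending limb, had -0.33 ± 0.0847 (SE) (adjusted p = 0.0967), and UMOD of the same segment lay on the other side of 0, at 0.52 ± 0.221 (SE) (adjusted p = 0.315). In the collecting duct list 0 of 14 genes were called by edgeR and 1 had an unadjusted p under 0.05 (7.14%, against 13.4% of all genes), the proton pump subunit ATP6V1B1 (0.54 ± 0.135 (SE), adjusted p = 0.0857).

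Amino acid transporters recover filtered amino acids in the proximal tubule, and 0 of 31 tested were called by edgeR, and 5 had an unadjusted p under 0.05 (16.1%, against 13.4% of all genes). The median log2 fold change was 0.05, at 0.26 in libraries with EIF1AY above 1 CPM and -0.0087 in the others. SLC38A1, a glutamine transporter, had the smallest p of the list, with 36.9 to 51.3 CPM (median 44.6) in CF and 33.7 to 39.5 CPM (median 37.1) in WT (log2 fold change 0.27 ± 0.0818 (SE), adjusted p = 0.150). SLC6A19, the neutral amino acid transporter of the brush border, had -0.65 ± 0.266 (SE) (adjusted p = 0.293), and its estimate was -1.37 in lower-numbered and 0.50 in higher-numbered pigs. Among 22 other chloride channels and anion exchangers 0 were called by edgeR and 4 had an unadjusted p under 0.05 (18.2%, against 13.4% of all genes), led by CLCN3 (0.23 ± 0.089 (SE), adjusted p = 0.267).

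In each of 4 lists of signal-responsive genes 1 gene was called (7.14% to 10% of a list, against 0.33% of all genes), and each of these was higher in CF. KLF10, a repressor induced by TGF-beta, had 51.0 to 93.8 CPM (median 71.2) in CF and 37.0 to 53.3 CPM (median 41.2) in WT (log2 fold change 0.67 ± 0.118 (SE), adjusted p = 0.0183). Of the 14 tested genes of TGF-beta feedback and targets, 11 had higher estimates in CF and 7 had an unadjusted p under 0.05 (50%, against 13.4% of all genes). Those included the feedback repressor SKIL, whose groups did not overlap (0.56 ± 0.123 (SE), adjusted p = 0.0532). KLHL24, a FoxO-responsive ubiquitin ligase adaptor, had 184 to 278 CPM (median 228) against 125 to 178 CPM (median 167), without overlap (log2 fold change 0.58 ± 0.103 (SE), adjusted p = 0.0193). In its list of 13 tested FoxO and fasting genes 11 had higher estimates, and the levels of FOXO1 itself did not overlap either (0.35 ± 0.0863 (SE), adjusted p = 0.0857). KLF9, a classic glucocorticoid target, had 66.2 to 113 CPM (median 81.3) in CF and 52.9 to 71.7 CPM (median 59.2) in WT (log2 fold change 0.49 ± 0.105 (SE), adjusted p = 0.0487). All 10 glucocorticoid targets, a list added after values were seen, had higher estimates in CF, but the list median was 0.50 in lower-numbered and 0.13 in higher-numbered pigs, and 0.51 and 0.19 with EIF1AY above and under 1 CPM. CRY2, a repressor of the circadian clock, was called among 13 clock genes (0.47 ± 0.096 (SE), adjusted p = 0.0421). The clock list was mixed, with 9 higher and 4 lower estimates, a median of 0.095 and a lowest estimate of -0.59. An unadjusted p under 0.05 was reached by 3 higher members and 1 lower member (30.8%, against 13.4% of all genes).

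The remaining higher genes had varied roles. CHMP1B, a subunit of the membrane-cutting ESCRT-III complex, had 60.8 to 79.4 CPM (median 69.1) in CF and 50.5 to 56.2 CPM (median 55.2) in WT, without overlap (log2 fold change 0.38 ± 0.0681 (SE), adjusted p = 0.0226). MAP1LC3B, which coats autophagosomes, was higher by a like amount (0.38 ± 0.0795 (SE), adjusted p = 0.0472). COL4A3BP, the ceramide transfer protein, had the smallest difference of the 70 but a narrow spread, 73.1 to 86.2 CPM (median 75.9) against 59.8 to 68.3 CPM (median 63.0) (log2 fold change 0.28 ± 0.057 (SE), adjusted p = 0.0421). EFNA1, a ligand of Eph receptors, had 45.1 to 82.9 CPM (median 65.8) against 36.0 to 50.2 CPM (median 42.8) (adjusted p = 0.0421). RSBN1, PCMTD1 and ZBBX also lay above the whole WT range in all 11 CF libraries, with log2 fold changes of 0.41, 0.42 and 0.86. The bradykinin receptor BDKRB2 and the T-type calcium channel CACNA1H were higher with overlap (0.69 and 0.55).

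Marker genes of other cell types gave 0 calls by edgeR. Those lists held 10 podocyte, 12 nephron progenitor, 12 endothelial, 12 stromal and 13 immune genes tested, with medians between -0.08 and 0.08 and with 1, 1, 1, 1 and 3 members at an unadjusted p under 0.05 (8.33% to 23.1% of a list, against 13.4% of all genes). Those medians moved within subsets. The stromal median was -0.08 in lower-numbered and 0.26 in higher-numbered pigs, where 11 of 12 members had higher estimates, and it was -0.38 and 0.06 with EIF1AY above and under 1 CPM. Split by EIF1AY in the same order, the podocyte median was 0.19 and -0.02 and the endothelial median -0.14 and 0.03. Summed stromal levels overlapped widely, 3192 to 6390 CPM in CF and 2989 to 6936 CPM in WT, as did summed immune levels, 145 to 290.4 CPM and 168 to 248 CPM. Tubular injury (12 genes), immediate early (14), ATF4 response (13), interferon response (14) and gluconeogenesis lists (14) also had 0 calls by edgeR, with 1, 0, 1, 1 and 2 members at an unadjusted p under 0.05 (at most 14.3% of a list, against 13.4% of all genes). Higher estimates in CF were found for 10 of the 14 immediate early genes (median 0.22) and 10 of the 13 ATF4 genes (median 0.21). The ATF4 median was 0.39 with EIF1AY above and 0.06 with EIF1AY under 1 CPM. Among these lists, the immediate early gene JUN reached 331 CPM in CF1 where the other CF libraries held 20.4 to 38.5 CPM. The interferon list summed to 1105 CPM in CF3 where the other CF libraries held 317 to 409 CPM. The medians of that list were 358 CPM in CF and 392 CPM in WT, whose highest library held 453 CPM. By gene, 12 of the 14 had higher estimates in CF, with a median log2 fold change of 0.36, which was 0.62 in lower-numbered and -0.14 in higher-numbered pigs, and -0.27 and 0.87 with EIF1AY above and under 1 CPM.

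All 70 called genes kept their direction when lower-numbered pigs (6 CF and 4 WT) and higher-numbered pigs (5 CF and 2 WT) were fitted apart, although all these libraries had served to call them. An unadjusted p under 0.05 was reached in both sets by 58 of the 70. Genes chosen in 1 set alone are a fairer reading, since the sets share no library. Of 148 genes with a p under 0.001 in lower-numbered pigs, 109 (73.6%) had the same direction in higher-numbered pigs, and of 171 chosen the other way round, 109 (63.7%) did. Over all 21005 genes in both fits the share was 55.1%. Each set alone called few genes, 4 (0.0189%) and 37 (0.173%), and 2 and 4 of these were among the 70. DNAH5, an axonemal dynein gene, had the smallest p of the 70 for a difference between the sets (adjusted p = 4.63e-04 in edgeR): its level was 47.9 CPM in WT22 and 51.2 CPM in WT23, and 3.27 to 7.89 CPM in all the other 15 libraries. RN18S was called lower in CF, and WT12 alone held 72774 CPM, against 880.3 to 3930 CPM in the other WT and 627 to 2392 CPM in the CF libraries.

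**Figure D4:**
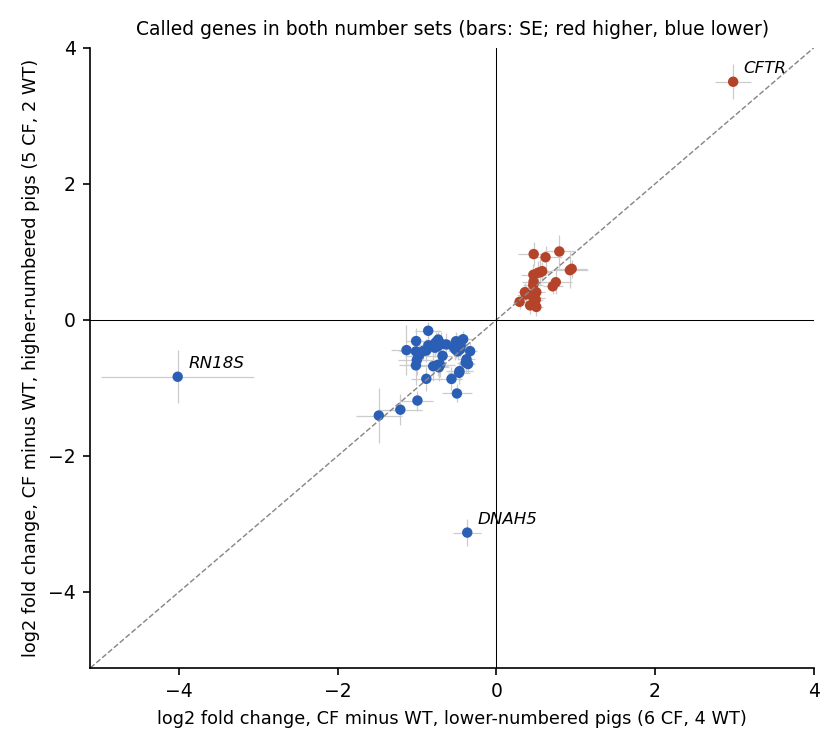
Log2 fold change (CF minus WT) of the 70 called genes in lower-numbered pigs (x axis, 6 CF and 4 WT) and higher-numbered pigs (y axis, 5 CF and 2 WT), with bars for standard errors and a dashed line of equality. All points lie in the quadrants of shared sign. CFTR stands apart at 2.98 and 3.50, while RN18S and DNAH5 each have a large value in 1 set only.

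Genes near CFTR on chromosome 18 were also read as a group. Within 10 Mb of CFTR 112 genes were tested, of which 2 were called, CFTR and GPR37. CFTR is in its own window by construction, and without it 1 of 111 genes was called (0.901%, against 0.33% of all genes). GPR37 lies at -5.69 Mb from it (minus meaning toward the start of the chromosome), at chr18:23019752-23036483. With CFTR left out, an unadjusted p under 0.05 was found for 29 of 111 genes (26.1%, against 13.4% of all genes), 12 of 48 within 5 Mb (25%) and 51 of 290 within 20 Mb (17.6%). These genes had both signs. MET, the hepatocyte growth factor receptor gene, lay at 0.761 Mb with a log2 fold change of 0.29 ± 0.110 (SE) and an unadjusted p = 0.0151, and CTTNBP2, at -0.371 Mb, had -0.17 ± 0.0699 (SE) with an unadjusted p = 0.0218. On the whole chromosome 4 of 480 genes were called (0.833%, CFTR included), the others being MEST and AQP1, at -10.4 and 13.3 Mb from CFTR.

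**Figure D5:**
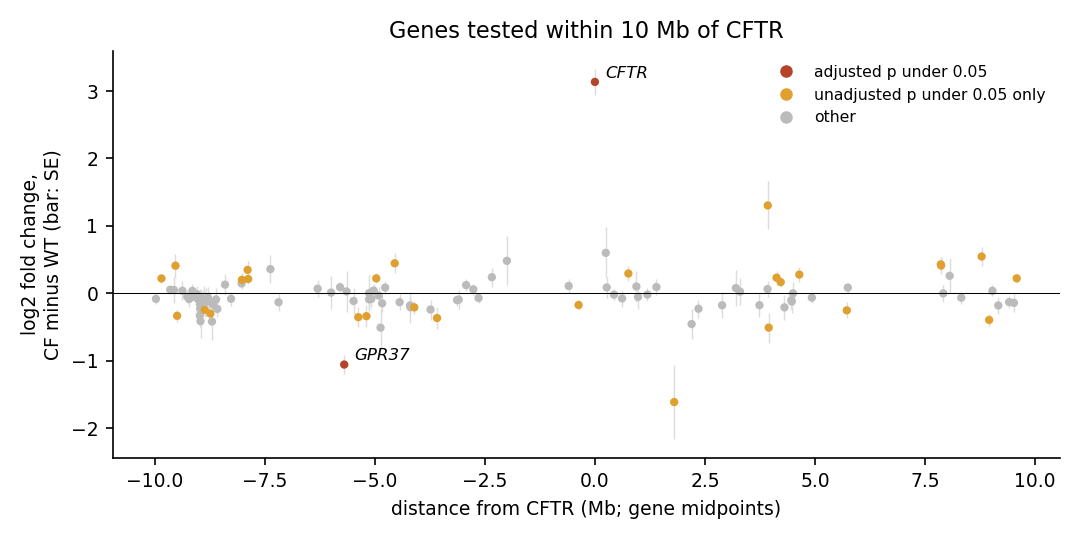
Log2 fold change (CF minus WT, bars for standard errors) of the 112 genes tested within 10 Mb of CFTR, by distance in Mb between gene midpoints. Red points had an adjusted p under 0.05 and yellow points an unadjusted p under 0.05 only. CFTR (3.14) and GPR37 (-1.06) were called.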

How the data were processed

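The authors pseudoaligned reads of stranded total RNA libraries to pig transcripts with kallisto 0.48.0, and per the labels the build is Sscrofa11.1. The expected (estimated) counts the authors deposited are kallisto's estimates per transcript, not normalized. The TPM values deposited beside them were read for CFTR only and are not reported. Estimated counts of 77689 transcripts were summed to 26687 gene symbols by the deposited transcript table and rounded, since 63.0% of transcript values were not whole (tolerance 1e-06).

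The main test was edgeR 4.0.16 on R 4.3.3, with filterByExpr, TMM, the quasi-likelihood test of 11 CF against 6 WT libraries and Benjamini-Hochberg adjustment over 21209 genes, called at an adjusted p under 0.05. A difference is CF minus WT in log2, with its standard error. The Mann-Whitney U test, which the study applied to CF against all non-CF samples on counts imported another way, was run exactly as an alternative on median-of-ratios scaled counts of these 17 libraries, with a pseudocount of 0.5 for its fold change. Other alternatives used DESeq2 1.42.0, limma 3.58.1 with voom sample weights, other scalings and filters, the number set or EIF1AY as terms, subsets of libraries, and each library left out in turn. Each library is another pig, and p-values measure the spread between these pigs. Limits from counts cover counting error only.

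Genes were named by a rule: CFTR, the 12 genes higher and 12 lower with the smallest adjusted p, the 4 largest differences in each direction without overlap, up to 4 called members of each list or otherwise the member with the smallest p, called genes within 10 Mb of CFTR, and EIF1AY. All other genes were named after their values were seen, and a few list members are not reported here because they are withheld for evaluations. The members and lists were chosen with earlier results of these data known. The lists of DNA replication, DNA repair, LXR targets, glucocorticoid targets and histone products were added after values had been seen. Of the Y-linked list 1 of 8 genes was tested. Promoters were read from the RefSeq genome of the same build with pysam 0.24.0, and plots were drawn with matplotlib 3.10.9 in Python 3.11.15. The test scripts were tested on simulated data, with 100 genes changed by 0.5 and 100 by 1 on the log2 scale. There edgeR recovered 34% and 76% of these genes, with 4 false calls. DESeq2 recovered 56% and 82%, with 32 false calls.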

Additional observations from a re-analysis of the deposited data

Results flagged for a closer look

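Among 80 genes named or called, the 6 WT libraries were searched for a value set far apart from the other 5 (Dixon's ratio above 0.625), which chance alone gives in about 1 of 20 groups. It was found for 7 genes. WT12 held 72774 CPM of RN18S and 59.9 CPM of JUN, in each case the highest WT value. WT17 held 7.73 CPM of APOF and 3.50 CPM of CXCL10, again the highest. WT16 had the lowest RSBN1 (39.8 CPM), WT23 the lowest UBASH3B (16.9 CPM) and WT18 the highest GPBAR1 (1.99 CPM). The cause of these values was not tested.

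The CF minus WT difference of DNAH5 differed between the number sets, by -2.74 on the log2 scale (higher- minus lower-numbered pigs), with an adjusted p = 4.63e-04 for the interaction in edgeR. It was -0.37 in lower-numbered and -3.13 in higher-numbered pigs. DNAH5 was the 1 gene called for this interaction, and 1752 genes had an unadjusted p under 0.05.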

How the results depend on the processing

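Against 70 calls, 62 were made with RLE scaling, 51 without the expression filter, 87 with a filter of 1 CPM in 6 libraries, 72 in the fit of all 23 libraries (50 of them among the 70), 94 with the number set as a term and 62 without RN18S in the totals. Larger moves were 120 with upper-quartile scaling, 156 with limma-voom weights, 486 with DESeq2 (245 higher, 241 lower, against 24 and 46), 136 with EIF1AY as a term and 199 with both terms. Subsets gave 4 (lower-numbered), 37 (higher-numbered), 1 (EIF1AY above 1 CPM) and 21 calls (EIF1AY under 1 CPM), with fewer libraries by construction, and the exact Mann-Whitney U test gave 0, with 2605 genes at an unadjusted p under 0.05 and 0.0659 as its smallest adjusted p. Both terms, the EIF1AY subsets and RN18S were chosen after seeing the data. Without 1 library the count ran from 22 to 154. It was 22 without WT17, 25 without WT16, 26 without WT12 or CF7, 27 without WT18 or CF8, 28 without CF2 or CF5, 31 without CF10, 32 without WT22, 34 without CF3, 43 without CF6, 44 without CF1, 46 without CF9, 58 without CF11, 116 without WT23 and 154 without CF4, and the cause was not tested.

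The lists fixed at the start held 6 called members, AQP1, SLC12A3, KLF10, KLHL24, CRY2 and LSS. This became 23 with DESeq2, 10 with EIF1AY as a term, 1 in either number set and 0 by the exact Mann-Whitney U test, and 0 to 11 without 1 library. The CFTR difference was 3.01 to 3.33 without 1 library. In the exact Mann-Whitney U test it was 3.21, with an unadjusted p = 1.62e-04, the smallest that test can give and shared by 52 genes, and it missed the adjusted threshold (adjusted p = 0.0659). Called genes near CFTR, itself included, numbered 1 within 5 Mb, 2 within 10 Mb and 4 within 20 Mb. For the 63 called genes followed through the settings that gave them a value, 545 values without 1 library and 376 under the other alternatives missed the threshold, and 0 changed sign. These settings reused libraries that had called the genes, so the kept signs are no independent evidence. No paired analysis was possible because the labels give no litter and no replicate number shared between the genotypes.

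The depth gave CFTR at least 60 counts in each library, while GPBAR1 at under 2 CPM rests on few counts. A gene that missed the threshold is not shown to be equal in both genotypes.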
